A study of Mus musculus with 24 samples.

Results

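The comparison described here set LLC1 cells treated with trametinib at 10 nM for 6 h against untreated LLC1 cells of the same time, which received only 0.1% DMSO. LLC1 is a carcinoma line derived from the mouse Lewis lung tumour, and gene expression was measured by RNA sequencing. The members were 6 of the 24 libraries of the series, 3 with trametinib and 3 untreated, taken by their treatment and time labels and not by any measured value. The labels do not say if DMSO was also in the trametinib cultures. A pair of further comparisons served to show where the 6 h response differs. They were trametinib at 10 nM added for 6 h to cisplatin at 2.5 µM with pemetrexed at 2.5 µM (3 libraries) against those 2 drugs alone for 6 h (3 libraries), and trametinib at 10 nM for 24 h (3 libraries) against untreated cells at 24 h (3 libraries). The differences between these effects and the 6 h effect of trametinib alone were tested themselves. All groups are 1 cell line in culture, and nothing in the labels tells if the 3 libraries of a group stem from separate cultures. The spread that the p-values rest on may thus be technical.

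Trametinib binds the kinases MEK1 and MEK2 and keeps them from activating the ERK kinases, the last kinases of the RAS, RAF, MEK and ERK cascade. Active ERK switches on immediate-early and ETS family transcription factors, cyclin D1 and secreted ligands, and it also switches on its own inhibitors, the Sprouty and DUSP proteins, whose mRNAs are therefore read as a gauge of ERK activity. In cells with an active RAS pathway the cascade also feeds MYC, amino acid uptake and the building of ribosomes.

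Levels are given in TPM, a measure of relative abundance corrected for transcript length, summed here over the transcripts of a gene. A change is the difference in log2(TPM + 1), trametinib minus untreated, with its standard error, and a gene is said to have risen or fallen, or to be called, where its limma adjusted p over all genes tested was under 0.05. Locations are on GRCm38, from GENCODE M21. For genes near the pseudocount of 1 this scale makes a change look smaller than it is. Because the cells were read in bulk, fewer cells of a kind and less RNA per cell cannot be told apart. Some members of lists are named outside the naming rule, to complete a count of 5 or fewer, to mark the end of a range or as well-known members that were not called, and these were chosen after their values were seen.

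The 3 trametinib libraries held 11581 to 11599 genes at 1 TPM or more and the 3 untreated libraries 11242 to 11305. Libraries correlated at 0.988 to 0.991 within the trametinib group, at 0.993 to 0.994 within the untreated group, and at 0.966 to 0.975 between the groups (Pearson r on the log2 scale, across genes). The labelled cell line was checked against its markers. The keratin genes Krt8 (175 TPM with trametinib and 118 TPM untreated) and Krt18 (167 TPM with trametinib and 265 TPM untreated) and the mesenchymal genes Vim (3755 TPM with trametinib and 3522 TPM untreated) and S100a4 (7243 TPM with trametinib and 6685 TPM untreated) were present, whereas the epithelial adhesion gene Epcam was listed at 0 in all 6 libraries and Cdh1 averaged 0.0784 TPM with trametinib and 0.0549 TPM untreated. The leukocyte gene Ptprc and the T cell gene Cd3e were listed at 0 in all 6. Lung epithelial markers summed to 0.105 to 0.189 TPM in trametinib libraries and 0.0834 to 0.209 TPM in untreated ones, and B cell markers to 0.126 to 0.275 TPM with trametinib and 0.0571 to 0.236 TPM untreated. Macrophage markers, nearly all of it Cd68, summed to 4.69 to 7.33 TPM and 5.10 to 5.66 TPM in these groups, endothelial markers, nearly all of it Pecam1, to 2.12 to 3.06 TPM and 2.57 to 4.54 TPM, and the red cell markers Hba-a1, Alas2 and Hbb-bs, the last listed at 0 in all 6, to 1.43 to 1.96 TPM with trametinib and 0.278 to 1.37 TPM untreated.

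After 6 h with trametinib most genes tested had changed, nearly all of them by less than 1 on the log2 scale. Of 12581 genes, 4515 (35.9%) rose and 2377 (18.9%) fell, together 54.8%, and the libraries of the groups did not overlap in 7727 genes (61.4%). Those with a log2 change of 1 or more numbered 410 higher and 209 lower, and those with a change of 2 or more 32 higher and 18 lower. TPM are shares, and the balance of rises and falls depends on how they are scaled. After rescaling each library by its median ratio the median log2 change over genes was 0.00475 against 0.105 as deposited, a shift of 0.100, and 3491 genes (27.7%) were higher and 3414 (27.1%) lower, together 54.9%, so that 65.5% of the calls were rises as deposited and 50.6% after rescaling. Counts for a list are as deposited, with those after rescaling beside them where these differ by more than 1 gene in a direction. The counts as deposited are to be read beside 35.9% of all genes higher and 18.9% lower, and those after rescaling beside 27.7% and 27.1%.

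The feedback inhibitors that ERK installs against itself fell as a group. Spry4, a Sprouty protein that acts upstream of RAF, had 6.21, 9.11 and 4.35 TPM in trametinib libraries, against 28.4, 31.5 and 32.2 TPM in untreated libraries. Dusp6 (chromosome 10 at 99263231 to 99267489 on the plus strand), the phosphatase that inactivates ERK in the cytoplasm, had 24.5, 31.8 and 17.7 TPM in trametinib libraries, against 71.4, 71.3 and 77.8 TPM in untreated libraries. The libraries of the groups were well apart for both genes, with trametinib replicate 2 the highest and replicate 3 the lowest of their group. The changes were -2.12 ± 0.17, adjusted p = 5.5e-09 for Spry4 and -1.57 ± 0.14, adjusted p = 1.61e-08 for Dusp6, a 4.68-fold and a 2.98-fold lower mean. Errfi1, an inhibitor of the EGF receptor that ERK signalling induces, had 15.2, 19.8 and 14.9 TPM in trametinib libraries, against 64.4, 72.3 and 75 TPM in untreated libraries (-2.03 ± 0.10, adjusted p = 8.16e-12). The nuclear ERK phosphatase gene Dusp5 had 5.71, 6.85 and 5.19 TPM in trametinib libraries, against 21.7, 22.7 and 24.2 TPM in untreated libraries (-1.79 ± 0.076, adjusted p = 9.05e-13). Neither gene's groups overlapped, and in each of them the lowest untreated library stood above 3 times the highest value of the trametinib libraries.

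Of the 14 feedback inhibitors tested 12 fell and 2, Spry1 (-0.05) and Il17rd (0.05), were not called, against 18.9% of all genes lower. The median change was -0.56, and -0.68 after rescaling, beside 0.105 and 0.00475 over all genes. The size differed widely among the members that fell, between -0.27 for Spred2 and -2.12 for Spry4. Spry2, a close relative of Spry4, averaged 19.4 ± 2.51 TPM with trametinib and 28.2 ± 1.30 TPM untreated (-0.52 ± 0.091, n = 3 a group). Lrig1, which promotes the breakdown of EGF receptors, averaged 45.1 ± 2.37 TPM with trametinib and 68.8 ± 2.14 TPM untreated (-0.60 ± 0.052).

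**Figure D1:**
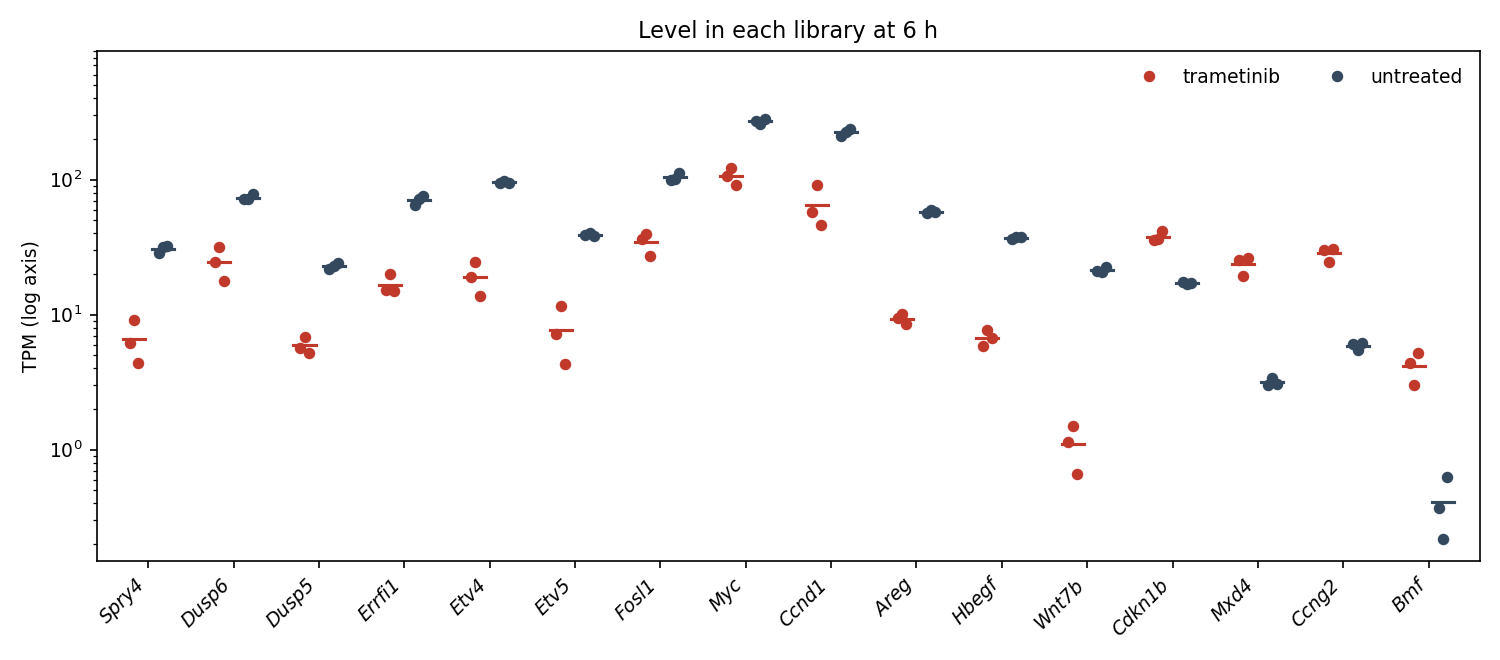
TPM on a log axis in each of the 3 trametinib (red, left) and 3 untreated (dark, right) libraries at 6 h for 16 genes, with each group's mean as a bar. The groups do not overlap for any of the 16 genes, and the 12 genes from Spry4 to Wnt7b are lower with trametinib while Cdkn1b, Mxd4, Ccng2 and Bmf are higher.

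The transcription factors driven by ERK fell unevenly. Etv4 (chromosome 11 at 101769742 to 101785371 on the minus strand), an ETS factor, had 19.1, 24.6 and 13.7 TPM in trametinib libraries, against 95, 98.1 and 93.9 TPM in untreated libraries. Its relative Etv5 had 7.20, 11.6 and 4.27 TPM in trametinib libraries, against 38.9, 40.1 and 38.3 TPM in untreated libraries. The 3 untreated libraries lay close together for both, while the trametinib libraries spread, again with replicate 2 highest and replicate 3 lowest. Etv4 changed by -2.30 ± 0.19, adjusted p = 7.72e-09 and Etv5 by -2.29 ± 0.20, adjusted p = 1.27e-08. Fosl1, the AP-1 subunit FRA1, had 36.2, 39.9 and 27.1 TPM in trametinib libraries, against 98.8, 100.2 and 112 TPM in untreated libraries (-1.58 ± 0.14, adjusted p = 2.03e-08), with no overlap.

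Egr1, an immediate-early zinc finger gene, was low in both groups, with 0.0251, 0.0224 and 0.0259 TPM in trametinib libraries, against 2.12, 2.08 and 2.73 TPM in untreated libraries. All 3 trametinib values were close to 0, and the untreated values were near 2 TPM, so its change of -1.69 ± 0.099 understates the gap. Of 24 factors tested, 13 fell and 2 rose, Jund (1.03) and Etv1 (0.56), beside 18.9% and 35.9% of all genes. The median was -0.42 (-0.53 after rescaling, when 17 were lower, beside 27.1% of all genes). Jund was no longer called without trametinib replicate 1 (0.83). The immediate-early genes Fos and Junb were not called, with changes of 0.22 and -0.03.

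Of 17 secreted factors 9 fell and 6 rose, beside 18.9% and 35.9% of all genes (9 and 5 after rescaling, beside 27.1% and 27.7%). The largest falls that the naming rule chose among them were of Wnt7b, Areg, Hbegf and Il11. Areg, which encodes amphiregulin, a ligand of the EGF receptor, had 9.42, 10.1 and 8.55 TPM in trametinib libraries, against 56.2, 59.9 and 57.1 TPM in untreated libraries. Hbegf, which encodes heparin-binding EGF, another of its ligands, had 5.88, 7.68 and 6.69 TPM in trametinib libraries, against 36.6, 37.4 and 37.5 TPM in untreated libraries. Each gene's values lay within a narrow range in both groups, and the groups did not overlap. The mean was 6.17-fold lower for Areg (-2.51 ± 0.10, adjusted p = 8.25e-13) and 5.51-fold lower for Hbegf (-2.31 ± 0.082, adjusted p = 2.1e-13). Ereg, also a ligand of that receptor, averaged 7.47 ± 1.46 TPM with trametinib and 17.1 ± 0.586 TPM untreated (-1.11 ± 0.095, adjusted p = 1.02e-08).

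Wnt7b (chromosome 15 at 85535437 to 85582473 on the minus strand), a WNT ligand, had 1.14, 1.49 and 0.665 TPM in trametinib libraries, against 20.9, 20.6 and 22.4 TPM in untreated libraries. This was the largest fall on the log2(TPM + 1) scale that the naming rule chose, 19.4-fold in the mean (-3.43 ± 0.14, adjusted p = 6.35e-13), and the trametinib libraries were all near the level of the pseudocount. The interleukin-6 family cytokine gene Il11 had 2.55, 1.32 and 1.44 TPM in trametinib libraries, against 12.6, 11.1 and 12.9 TPM in untreated libraries (-2.28 ± 0.21, adjusted p = 2.58e-08), with trametinib replicate 1 the highest of its group. Vegfa, the angiogenic growth factor gene, averaged 37.8 ± 3.27 TPM with trametinib and 80.4 ± 2.22 TPM untreated (-1.07 ± 0.071, adjusted p = 3.3e-10). The largest rise among the secreted factors was Vegfc (0.81), named after its value was seen, a growth factor of lymphatic vessels.

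The cascade itself changed less. Of 31 receptors, adaptors, GTPases, regulators and kinases 10 rose and 4 fell (9 and 7 after rescaling), beside 35.9% and 18.9% of all genes. Their median was 0.11, near that of all genes. The genes of the drug targets, Map2k1 (0.03 ± 0.064) and Map2k2 (0.27 ± 0.21), were not called, nor were Nras (0.01 ± 0.054, lower after rescaling), Hras (0.05 ± 0.091) and Braf (0.16 ± 0.11). Mapk3, which encodes ERK1, had 112, 119 and 104 TPM in trametinib libraries, against 57.1, 57.6 and 56.1 TPM in untreated libraries, with no overlap (0.96 ± 0.088, adjusted p = 2.52e-08). Receptor genes rose in part. Pdgfra had 5.28, 5.15 and 6.39 TPM in trametinib libraries, against 1.86, 1.82 and 2.08 TPM in untreated libraries (1.17 ± 0.085, adjusted p = 1e-09), and Erbb2 16.6, 16.4 and 16 TPM in trametinib libraries, against 11, 10.2 and 12.1 TPM in untreated libraries (0.52 ± 0.061, adjusted p = 6.19e-07). Egfr overlapped between the groups, with 9.55, 10.2 and 9.14 TPM in trametinib libraries, against 7.55, 9.18 and 8.69 TPM in untreated libraries (0.17 ± 0.12, adjusted p = 0.257). The 4 genes that fell were Rasa1, a GTPase-activating protein that switches RAS off (-0.80 ± 0.057, adjusted p = 9.93e-10), the receptor genes Igf1r (-0.44) and Axl (-0.33), and Ptpn11 (-0.31), which encodes the phosphatase SHP2. Igf1r lost its call without trametinib replicate 3 (-0.38).

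Cell cycle genes of G1 changed in both directions. Ccnd1 (chromosome 7 at 144929931 to 144939925 on the minus strand), which encodes cyclin D1, had 57.7, 91.1 and 45.8 TPM in trametinib libraries, against 212, 227 and 235 TPM in untreated libraries (-1.83 ± 0.16, adjusted p = 1.2e-08). Trametinib replicate 2 was the highest of its group and still below every untreated library. Ccnd2 fell less, at 67.8 ± 5.15 TPM with trametinib and 92.7 ± 4.62 TPM untreated (-0.45 ± 0.070, adjusted p = 2.21e-05), and Ccnd3 overlapped between groups (0.23 ± 0.17, adjusted p = 0.277). Of the inhibitors of cyclin-dependent kinases, Cdkn1a, which encodes p21, was not called (0.21 ± 0.12) and 3 rose. Cdkn1b (chromosome 6 at 134920401 to 134925513 on the plus strand), which encodes p27, had 35.6, 36.2 and 41.5 TPM in trametinib libraries, against 17.5, 16.8 and 17.2 TPM in untreated libraries (1.09 ± 0.059, adjusted p = 2.11e-11). Cdkn2c, which encodes p18, had 28.1, 25.8 and 27.6 TPM in trametinib libraries, against 10.9, 10.6 and 11.1 TPM in untreated libraries (1.25 ± 0.062, adjusted p = 8.72e-12). Cdkn2d, which encodes p19 of the same family, had 37.9, 28 and 32.2 TPM in trametinib libraries, against 13, 14.1 and 15.4 TPM in untreated libraries (1.14 ± 0.085, adjusted p = 1.47e-09). None of these 3 overlapped between the groups. E2f8, an E2F family repressor, averaged 28.9 ± 2.57 TPM with trametinib and 74.7 ± 2.79 TPM untreated (-1.34 ± 0.079, adjusted p = 6.93e-11). Over the 24 genes tested 9 rose and 9 fell, beside 35.9% and 18.9% of all genes, with a median of 0.11.

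Myc fell while genes for proteins that oppose it on DNA rose. Myc had 107, 122 and 90.7 TPM in trametinib libraries, against 269.7, 257 and 281 TPM in untreated libraries, a 2.53-fold lower mean (-1.34 ± 0.11, adjusted p = 7.08e-09). Mxd4 (chromosome 5 at 34173883 to 34187720 on the minus strand), which encodes a repressor that pairs with the MYC partner MAX, had 25.3, 19.5 and 26.1 TPM in trametinib libraries, against 2.99, 3.42 and 3.06 TPM in untreated libraries, a 7.48-fold higher mean (2.56 ± 0.100, adjusted p = 5.81e-13). Neither gene's libraries overlapped. Mxd1, another of these repressors, stood at 2.35 ± 0.221 TPM with trametinib and 0.769 ± 0.0128 TPM untreated (0.92 ± 0.066, adjusted p = 9.23e-10). Txnip, a thioredoxin-binding protein gene that the MondoA factor activates, had 27.1, 34.3 and 37.5 TPM in trametinib libraries, against 7.74, 8.42 and 5.46 TPM in untreated libraries (2.06 ± 0.13, adjusted p = 2.64e-10). Of 12 genes in this network 6 rose and 3 fell (6 and 4 after rescaling), beside 35.9% and 18.9% of all genes. The 3 that fell were Myc, Max (-0.61) and Mlxip (-0.43).

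Of 17 genes listed as FOXO factors and their targets, 11 rose and 2 fell (9 and 3 after rescaling), beside 35.9% and 18.9% of all genes, with a median of 0.35. Ccng2, the unusual cyclin G2, had 30.04, 24.5 and 30.6 TPM in trametinib libraries, against 6.09, 5.46 and 6.16 TPM in untreated libraries (2.09 ± 0.11, adjusted p = 1.37e-11). Sesn1, a stress-induced inhibitor of mTORC1, had 15.8, 15 and 17.7 TPM in trametinib libraries, against 5.84, 5.85 and 6.04 TPM in untreated libraries (1.31 ± 0.071, adjusted p = 2.39e-11). Both were higher in every trametinib library than in any untreated one. The factors themselves rose less, Foxo3 by 0.34 ± 0.074, Foxo4 by 0.35 ± 0.068 and Foxo1, at 1.06 ± 0.0707 TPM with trametinib and 0.534 ± 0.0898 TPM untreated, by 0.42 ± 0.085. Gadd45b rose (1.44 ± 0.18, adjusted p = 1e-06) and its paralog Gadd45a fell (-1.39 ± 0.13, adjusted p = 2.35e-08), the other gene that fell being Trib2 (-0.46).

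Members of the BCL2 family, which set the threshold for apoptosis, were split. Bmf, a death-promoting BH3-only gene, had 4.39, 3.01 and 5.19 TPM in trametinib libraries, against 0.370, 0.219 and 0.630 TPM in untreated libraries (1.87 ± 0.17, adjusted p = 3.09e-08), higher in every trametinib library. Bcl2, which blocks apoptosis, had 4.51, 7.55 and 4.46 TPM in trametinib libraries, against 9.29, 9.56 and 10.5 TPM in untreated libraries (-0.76 ± 0.13, adjusted p = 4.26e-05), and Bcl2l1, which encodes BCL-XL, 47.6, 52 and 42.7 TPM in trametinib libraries, against 64.9, 73.9 and 68.8 TPM in untreated libraries (-0.54 ± 0.069, adjusted p = 1.94e-06). The groups did not overlap for either gene. Bcl2l11, which encodes the BH3-only protein BIM, averaged 5.89 ± 0.143 TPM with trametinib and 7.18 ± 0.464 TPM untreated and passed narrowly (-0.25 ± 0.089, adjusted p = 0.0247). It was no longer called when untreated replicate 2 (-0.22) or 3 (-0.23) or trametinib replicate 3 (-0.23) was left out. Of 14 members 5 rose and 4 fell as deposited, beside 35.9% and 18.9% of all genes. After rescaling 3 rose and 7 fell, beside 27.7% and 27.1%, so the balance of rises and falls turned with the scaling. The other genes that rose were Bnip3l (0.88), Bad (0.66), Bax (0.27) and Bak1 (0.19), and the other that fell was Bid (-0.61). After rescaling Bax (0.15) and Bak1 (0.07) were no longer called. Mcl1 was not called as deposited (-0.14) and was lower after rescaling (-0.26) and without trametinib replicate 2 (-0.20). The call of Bak1 ended without untreated replicate 1 (0.20), 2 (0.19) or 3 (0.18) and without trametinib replicate 1 or 2 (0.18 each).

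**Figure D2:**
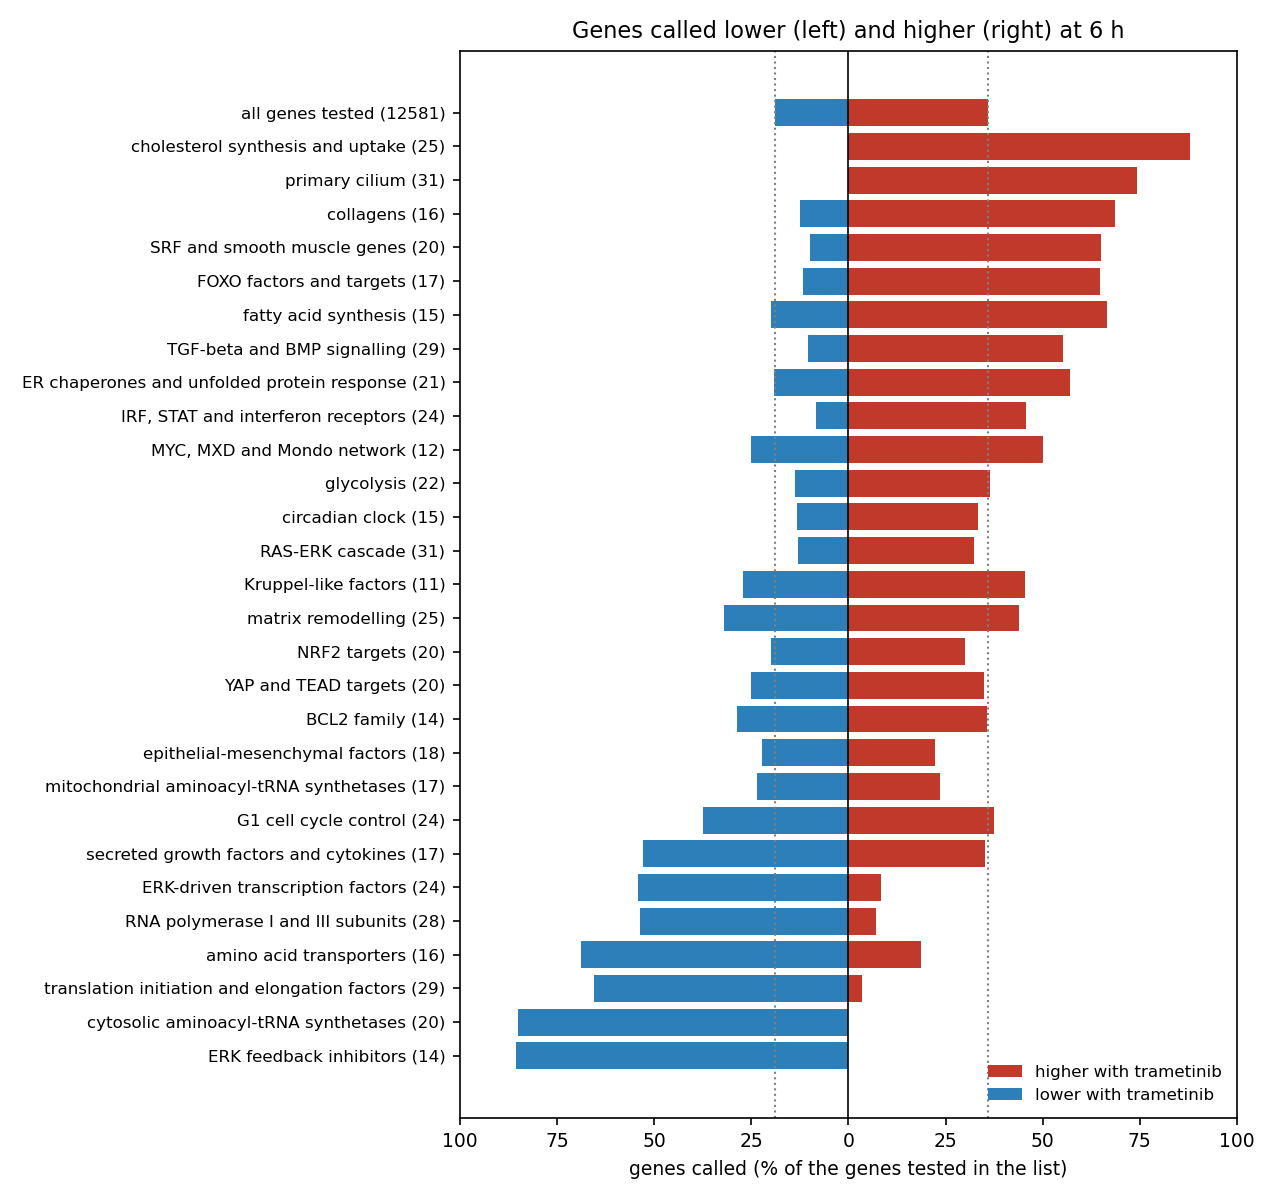
For each gene list (number of genes tested in brackets), the percentage of its genes called higher (red, to the right) and lower (blue, to the left) with trametinib at 6 h, ordered by the difference of these shares, with all genes tested at the top and as dotted lines. Cholesterol synthesis and primary cilium lists hold rises and no falls, and ERK feedback inhibitors and cytosolic aminoacyl-tRNA synthetases hold falls and no rises.

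Most genes that bring amino acids into the cell fell, as did most that load them onto tRNA in the cytosol. Slc7a11, the cystine transporter, had 1.27, 1.90 and 1.58 TPM in trametinib libraries, against 8.67, 8.64 and 8.54 TPM in untreated libraries (-1.90 ± 0.11, adjusted p = 4.28e-11). Slc7a5, the large neutral amino acid transporter LAT1, had 129, 123 and 113 TPM in trametinib libraries, against 370.4, 373 and 344 TPM in untreated libraries (-1.57 ± 0.071, adjusted p = 2.35e-12), and its heavy chain Slc3a2 had 77.2, 79.6 and 73.8 TPM in trametinib libraries, against 184, 174 and 170.0 TPM in untreated libraries (-1.18 ± 0.050, adjusted p = 8.7e-13). The groups did not overlap for any of these, and the mean of Slc7a11 was 5.44-fold lower. The glutamine transporter gene Slc1a5 had 45.3, 57.7 and 41.7 TPM in trametinib libraries, against 168, 158 and 158 TPM in untreated libraries (-1.73 ± 0.093, adjusted p = 2.08e-11). Of 16 transporters 11 fell and 3 rose (11 and 2 after rescaling), beside 18.9% and 35.9% of all genes, with a median of -0.65. Those that rose were the proton-coupled amino acid transporter genes Slc36a1 (0.50) and Slc36a4 (0.44), and Slc38a4 (0.17), whose libraries overlapped and whose call ended without untreated replicate 1 (0.13) or 3 (0.17) and without trametinib replicate 2 (0.15) or 3 (0.13).

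Cytosolic aminoacyl-tRNA synthetases, which charge tRNA for translation outside mitochondria, fell in 17 of 20 cases (19 after rescaling), beside 18.9% of all genes, with a median of -0.57. Cars (chromosome 7 at 143557230 to 143600090 on the minus strand), the cysteine enzyme, had 51.3, 47.1 and 47.4 TPM in trametinib libraries, against 107, 104 and 115 TPM in untreated libraries (-1.15 ± 0.054, adjusted p = 4.24e-12). Nars, for asparagine, had 187, 206 and 207 TPM in trametinib libraries, against 412, 412 and 386 TPM in untreated libraries (-1.01 ± 0.059, adjusted p = 5.53e-11). No trametinib library reached an untreated one in either gene. Gars (-0.88 ± 0.062), Tars (-0.92 ± 0.056) and Aars (-0.57 ± 0.054) fell as well, and Dars overlapped between the groups (-0.03 ± 0.048). The other genes not called as deposited were Vars (-0.17) and Qars (-0.06).

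The 17 mitochondrial synthetases, coded by separate nuclear genes, changed in both directions. Of them 4 rose and 4 fell (4 and 6 after rescaling), beside 35.9% and 18.9% of all genes, with a median of -0.03. Mars2 had 8.15, 10.5 and 8.73 TPM in trametinib libraries, against 17, 18 and 18.3 TPM in untreated libraries (-0.90 ± 0.10, adjusted p = 3.77e-07), and Nars2 9.68, 9.28 and 10.1 TPM in trametinib libraries, against 16.3, 15.6 and 16.7 TPM in untreated libraries (-0.69 ± 0.13, adjusted p = 0.000151). Both fell without overlap, as did Yars2 (-0.53 ± 0.11) and Tars2 (-0.18). Cars2 (0.36 ± 0.077), Iars2 (0.23) and Sars2 (0.47) were among those that rose.

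**Figure D3:**
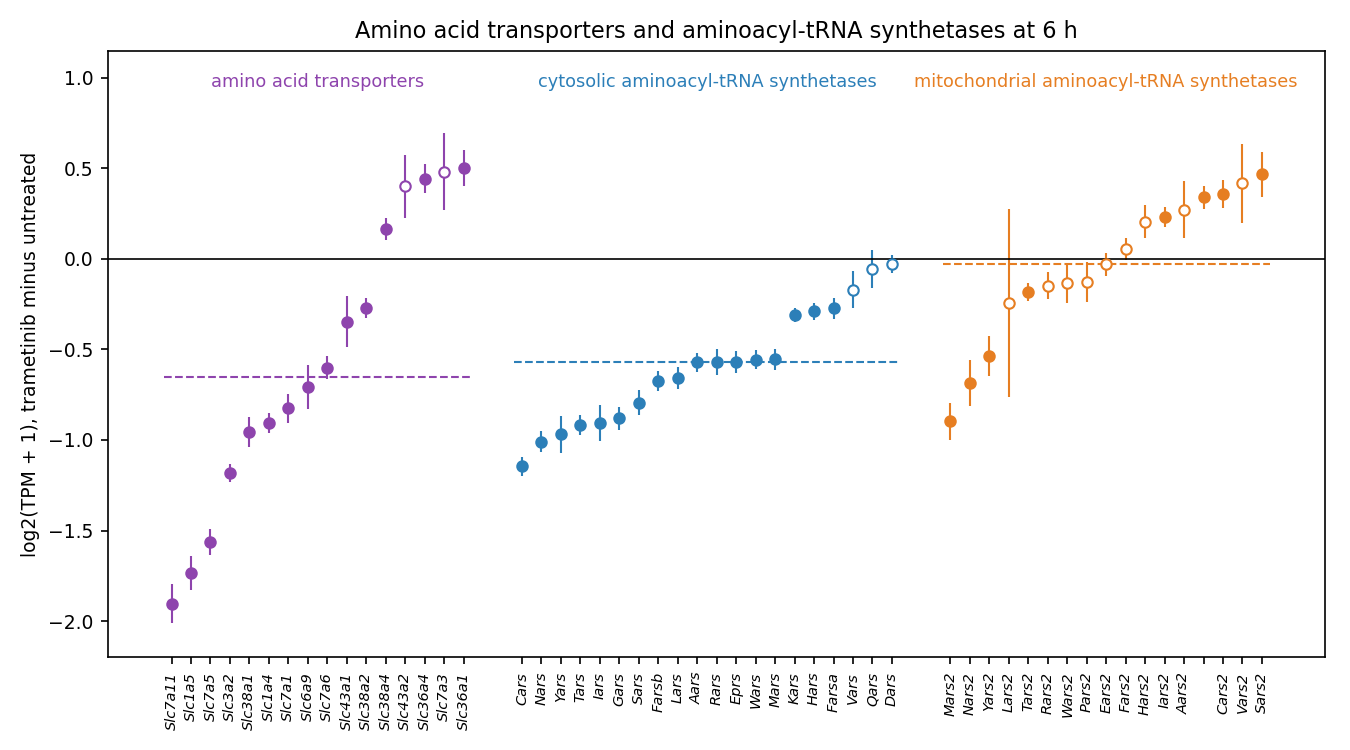
Change in log2(TPM + 1), trametinib minus untreated, with its standard error (n = 3 libraries a group) for amino acid transporters, cytosolic and mitochondrial aminoacyl-tRNA synthetases, each list ordered by its values. Filled points passed the test, open points did not, and dashed lines are list medians at -0.65, -0.57 and -0.03.

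Chac1, Trib3 and Cth were among the 12 genes that the naming rule chose for the size of their fall. Chac1, which degrades glutathione, had 1.78, 1.26 and 1.56 TPM in trametinib libraries, against 21.6, 19.4 and 18.1 TPM in untreated libraries (-3.03 ± 0.14, adjusted p = 2.4e-12). The pseudokinase gene Trib3 had 7.36, 6.43 and 5.33 TPM in trametinib libraries, against 52.3, 46.8 and 47.6 TPM in untreated libraries (-2.77 ± 0.12, adjusted p = 1.45e-12). Cth, the enzyme that makes cysteine from cystathionine, had 6.64, 8.05 and 5.81 TPM in trametinib libraries, against 52, 46.8 and 38.4 TPM in untreated libraries (-2.58 ± 0.10, adjusted p = 6.37e-13). All 3 genes lay at least 4-fold apart between the highest trametinib and the lowest untreated library. Trib3, Chac1 and several synthetase genes are known targets of ATF4, a bZIP factor that pairs with C/EBP proteins on a composite element.

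No list of ATF4 targets was tested. The promoters were searched for 7 motifs, none of which contains another, and first for that element, written TGATGNAA, on both strands of the RefSeq window from 250 bases before to 50 bases after each start. Such a window was at hand for 9280 of the genes tested, matched by symbol or gene ID, and 190 of them (2.05%) held the element. In 6940 of the 9280 windows the start lay within 100 bases of that of the gene's most abundant transcript. The others may miss the promoter in use. Cars, Nars, Slc7a5 and Slc1a5 were among the genes without a window and were not searched. Of the genes that fell by 1 or more on the log2 scale it was in 11 of 150 windows (7.33%), and of those that rose by as much in 6 of 314 (1.91%). Among the cytosolic synthetases 5 of 13 windows held it (38.5%), among the amino acid transporters 2 of 12, and among the mitochondrial synthetases 0 of 14. These shares describe letters in the windows and no binding was measured. The next lines show 150 bases of the promoters of 4 synthetase and 2 transporter genes that fell and hold the element, from 120 bases before the start to 30 bases after it, 5′ to 3′ on the strand of the gene, from RefSeq on GRCm38.p6, with the element in capitals (its reverse complement where it lies on the other strand).
Aars: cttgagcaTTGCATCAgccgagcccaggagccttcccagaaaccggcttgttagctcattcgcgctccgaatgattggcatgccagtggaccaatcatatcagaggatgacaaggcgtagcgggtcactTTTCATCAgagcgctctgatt
Gars: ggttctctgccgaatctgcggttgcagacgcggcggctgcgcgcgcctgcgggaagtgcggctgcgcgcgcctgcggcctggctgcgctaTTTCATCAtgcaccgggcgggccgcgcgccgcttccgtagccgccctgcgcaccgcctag
Iars: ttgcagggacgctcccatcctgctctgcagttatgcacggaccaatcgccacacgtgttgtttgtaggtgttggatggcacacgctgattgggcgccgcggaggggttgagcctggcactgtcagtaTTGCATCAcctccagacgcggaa
Tars: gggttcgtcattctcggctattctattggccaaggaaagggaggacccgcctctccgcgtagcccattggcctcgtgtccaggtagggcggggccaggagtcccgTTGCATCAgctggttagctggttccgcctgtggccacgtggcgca
Slc1a4: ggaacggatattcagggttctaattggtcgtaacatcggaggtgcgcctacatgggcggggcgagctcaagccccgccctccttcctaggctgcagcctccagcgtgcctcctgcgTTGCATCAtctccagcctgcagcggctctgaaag
Slc7a11: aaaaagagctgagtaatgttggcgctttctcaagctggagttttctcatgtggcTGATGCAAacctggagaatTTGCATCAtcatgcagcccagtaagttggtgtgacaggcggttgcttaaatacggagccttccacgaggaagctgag
These stretches lie at chr8:111033722-111033871 (plus strand) for Aars, chr6:55037881-55038030 (plus) for Gars, chr13:49682010-49682159 (plus) for Iars, chr15:11399629-11399778 (minus) for Tars, chr11:20332684-20332833 (minus) for Slc1a4 and chr3:50443584-50443733 (minus) for Slc7a11. The element begins 112 bases before the start and again at base 10 after it in Aars, 30 bases before in Gars, at base 8 after it in Iars, 15 bases before in Tars, 4 bases before in Slc1a4, and 66 and 47 bases before in Slc7a11. The starts lie 0 to 60 bases from that of the most abundant transcript of the gene in these libraries. Iars changed by -0.91 ± 0.100 and Slc1a4 by -0.91 ± 0.054, and the values of the other 4 genes stand above.

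Much of the machinery that makes ribosomal RNA, tRNA and protein fell too. Polr1b, a catalytic subunit of RNA polymerase I, had 26.1, 34.2 and 26.9 TPM in trametinib libraries, against 74.5, 77.8 and 77.6 TPM in untreated libraries (-1.38 ± 0.088, adjusted p = 1.88e-10). Polr3d, a subunit of RNA polymerase III, had 16.6, 18.1 and 16.4 TPM in trametinib libraries, against 29.5, 30.00 and 31.4 TPM in untreated libraries (-0.80 ± 0.067, adjusted p = 8.71e-09). The groups were separate in both genes. Of 28 subunits and factors of these polymerases 15 fell, beside 18.9% of all genes, and 19 after rescaling, beside 27.1%. The median was -0.49, and 2 rose. Those that rose were Maf1 (0.56), a repressor of RNA polymerase III, and Polr3gl (0.73), the paralog of subunit gene Polr3g, which fell (-0.57). The E-box CACGTG, the core site of MYC and its partners, was in 941 of the 9280 promoter windows (10.1%), in 27 of 150 windows of genes that fell by 1 or more (18%) and in 28 of 314 of those that rose by as much (8.92%). It reads the same on both strands. By list it was in 5 of 22 windows of the polymerase genes (22.7%) and 4 of 13 of the cytosolic synthetases (30.8%), lists with more falls than rises, and also in 5 of 14 of the FOXO list (35.7%), with more rises than falls. Of the other 5 motifs, the AP-1 site TGANTCA was in 8.67% of the windows of genes that fell by 1 or more, 5.73% of those that rose by as much and 4.91% of all windows. The ETS site CCGGAAGT was in 6.67%, 1.27% and 9.18% of these sets, the CRE TGACGTCA in 3.33%, 1.91% and 3.20%, the ISRE of interferon-responsive genes in 4%, 3.5% and 3.02%, and the TEAD site GGAATG in 10.7%, 13.4% and 11.6%.

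Among 29 factors of translation initiation and elongation 19 fell (25 after rescaling), beside 18.9% (27.1%) of all genes, and 1 rose. Eif2b3, a subunit of the exchange factor of eIF2, had 26.4, 28.9 and 29.9 TPM in trametinib libraries, against 55.4, 56.6 and 55.5 TPM in untreated libraries (-0.95 ± 0.064, adjusted p = 3.6e-10). Eif4e, the cap-binding protein, averaged 116 ± 10.2 TPM with trametinib and 161 ± 3.05 TPM untreated (-0.48 ± 0.053, adjusted p = 3.18e-07). The gene that rose was Pdcd4, an inhibitor of the helicase eIF4A, with 23.8, 20.7 and 28.5 TPM in trametinib libraries, against 6.31, 5.98 and 6.06 TPM in untreated libraries (1.82 ± 0.092, adjusted p = 9.84e-12). It was higher in every trametinib library than in any untreated one. Of a list of 16 noncoding hosts of small nucleolar RNAs only Zfas1 was among the genes tested, and it averaged 79.1 ± 7.63 TPM with trametinib and 123 ± 4.36 TPM untreated (-0.63 ± 0.099, adjusted p = 2e-05). The 15 others on that list were not found by name among the genes that the transcripts were matched to, so they could not be tested.

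Most lipid synthesis genes rose modestly, but some of fatty acid synthesis fell. Of 25 genes for making or taking up cholesterol 22 rose (21 after rescaling, with 1 lower), beside 35.9% of all genes, with a median of 0.60. Hmgcs1, the enzyme that makes HMG-CoA, had 41.5, 42.2 and 49.2 TPM in trametinib libraries, against 19.4, 21 and 21 TPM in untreated libraries (1.07 ± 0.076, adjusted p = 7.36e-10). Idi1, the isopentenyl diphosphate isomerase, had 24.4, 26.6 and 29.1 TPM in trametinib libraries, against 12.5, 13.7 and 14.2 TPM in untreated libraries (0.94 ± 0.088, adjusted p = 3.45e-08). Stard4, a sterol carrier, had 26.8, 25.2 and 24.9 TPM in trametinib libraries, against 10.8, 12.6 and 11.3 TPM in untreated libraries (1.08 ± 0.090, adjusted p = 6.98e-09). Every trametinib library exceeded every untreated library in these genes. Srebf2, the master regulator of the pathway, averaged 45 ± 5.55 TPM with trametinib and 31 ± 3.05 TPM untreated (0.52 ± 0.13, adjusted p = 0.00283), and its partner Scap was not called as deposited (-0.17 ± 0.11) and was lower after rescaling. Of 15 genes of fatty acid synthesis 10 rose and 3 fell, beside 35.9% and 18.9% of all genes (9 and 4 after rescaling, and 1 lower without trametinib replicate 1). The desaturase gene Scd2 had 235, 222 and 230.2 TPM in trametinib libraries, against 89.6, 89.96 and 89.4 TPM in untreated libraries (1.34 ± 0.076, adjusted p = 4.28e-11), and Fads2 23.1, 20.7 and 19.8 TPM in trametinib libraries, against 8.40, 8.44 and 8.01 TPM in untreated libraries (1.26 ± 0.081, adjusted p = 2.05e-10). The 3 that fell were Fasn (-0.61), Elovl6 (-0.25) and Acaca (-0.32). Acly was not called as deposited (-0.10) and was lower after rescaling (-0.22). The call of Acaca ended without untreated replicate 2 (-0.31) or 3 (-0.25) and without trametinib replicate 1 (-0.26) or 2 (-0.32), and that of Elovl6 without trametinib replicate 1 (-0.18).

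In glycolysis Hk2, the inducible hexokinase, had 48.8, 49 and 39.2 TPM in trametinib libraries, against 106, 116 and 116 TPM in untreated libraries (-1.29 ± 0.15, adjusted p = 5.43e-07) while Hk1, the constitutive one, had 92.1, 85.6 and 82.7 TPM in trametinib libraries, against 56, 59.1 and 63.5 TPM in untreated libraries (0.54 ± 0.068, adjusted p = 1.63e-06). The 2 hexokinase genes thus moved in opposite directions with no overlap. The lactate transporters did so as well, Slc16a1 at 80.5 ± 8.98 TPM with trametinib and 150.4 ± 1.87 TPM untreated (-0.90 ± 0.068, adjusted p = 1.73e-09) and Slc16a3, named after its value was seen, at 4.19 ± 0.995 TPM with trametinib and 1.18 ± 0.188 TPM untreated (1.24 ± 0.22, adjusted p = 8.02e-05). Over the 22 genes 8 rose and 3 fell (6 and 4 after rescaling), shares near or below those of all genes, the other fall being Pfkfb3 (-0.33), which was not called without untreated replicate 2 (-0.30) or 3 (-0.29) or trametinib replicate 2 (-0.30).

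Genes of matrix, contraction and TGF-beta signalling rose in part. Tgfbi, a secreted matrix protein that TGF-beta induces, had the largest rise on the log2(TPM + 1) scale that the naming rule chose, with 43.6, 34 and 51.5 TPM in trametinib libraries, against 4.70, 4.81 and 4.98 TPM in untreated libraries, and a mean 8.92-fold higher (2.90 ± 0.12, adjusted p = 6.92e-13). Of 16 collagens 11 rose and 2 fell, Col8a1 (-0.91) and Col18a1 (-0.35), beside 35.9% and 18.9% of all genes. The median was 0.68 (0.62 after rescaling, when 4 were lower). Without trametinib replicate 3, Col8a1 alone was lower, and Col18a1 stood at -0.25. Col6a1 had 49.3, 38.9 and 48.5 TPM in trametinib libraries, against 12.6, 12.6 and 12.3 TPM in untreated libraries (1.78 ± 0.11, adjusted p = 1.17e-10), and Col3a1 476, 415 and 459 TPM in trametinib libraries, against 192, 193 and 199 TPM in untreated libraries (1.20 ± 0.088, adjusted p = 1.14e-09). Both were higher in every trametinib library. The fibroblast markers Pdgfra, Dcn, Lum and Col1a1, of which Col1a1 is itself in the list, summed to 7.46 to 10.3 TPM in trametinib libraries and 2.35 to 3.02 TPM in untreated ones, with all 4 higher on average with trametinib and Lum at 0.111 TPM there and 0.0107 TPM untreated. Their part in the collagen result was not tested.

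Of 20 genes of smooth muscle and serum response factor 13 rose and 2 fell, Fhl2 (-0.60) and Zyx (-0.34), with a median of 0.36. After rescaling 11 rose and 3 fell. Of all genes 35.9% rose and 18.9% fell as deposited, and 27.7% and 27.1% after rescaling. Acta2 (chromosome 19 at 34241090 to 34255590 on the minus strand), which encodes smooth muscle actin, had 59, 56.4 and 62.5 TPM in trametinib libraries, against 16, 16 and 15.7 TPM in untreated libraries (1.83 ± 0.098, adjusted p = 2.05e-11). Csrp1, a LIM protein of actin fibres, had 248, 238 and 249 TPM in trametinib libraries, against 134, 133 and 130.0 TPM in untreated libraries (0.88 ± 0.043, adjusted p = 5.57e-12). The groups did not overlap in either. Over the 25 matrix remodelling genes 11 rose and 8 fell, beside 35.9% and 18.9% of all genes. The stromelysin gene Mmp3 had 15.8, 17.7 and 20.5 TPM in trametinib libraries, against 61.3, 61.2 and 60.2 TPM in untreated libraries (-1.71 ± 0.086, adjusted p = 8.4e-12), and Spp1, which encodes osteopontin, had 443, 516 and 477 TPM in trametinib libraries, against 1135, 1167 and 1088 TPM in untreated libraries (-1.24 ± 0.082, adjusted p = 3.3e-10). Both fell without overlap. Loxl2, an oxidase gene for crosslinking collagen, rose, with 16.7, 16 and 14.2 TPM in trametinib libraries, against 6.92, 6.50 and 7.53 TPM in untreated libraries (1.06 ± 0.078, adjusted p = 1.3e-09).

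In TGF-beta and BMP signalling 16 of 29 genes rose and 3 fell, beside 35.9% and 18.9% of all genes. After rescaling 11 rose and 3 fell, beside 27.7% and 27.1%, and without untreated replicate 2, 1 was lower. Id2, an inhibitor of bHLH factors that BMP signals induce, had 107, 121 and 141 TPM in trametinib libraries, against 29.1, 31 and 33.8 TPM in untreated libraries (1.94 ± 0.089, adjusted p = 2.86e-12). The ligand gene Tgfb3 had 13.5, 12.6 and 13.8 TPM in trametinib libraries, against 5.13, 5.41 and 5.20 TPM in untreated libraries (1.20 ± 0.077, adjusted p = 2.01e-10). Neither overlapped between groups. The 3 that fell were Smad7 (-0.43), Ltbp1 (-0.24) and Smad1 (-0.14). Smad7 was not called without untreated replicate 2 (-0.33), nor Smad1 without any single untreated replicate (-0.13, -0.14 and -0.14) or without trametinib replicate 1 (-0.08) or 3 (-0.15). Epithelial and mesenchymal factors gave no common direction, with 4 higher and 4 lower of 18, beside 35.9% and 18.9% of all genes (8 lower after rescaling, beside 27.1%). Among them the progenitor factor gene Sox9 had 1.44, 1.27 and 1.33 TPM in trametinib libraries, against 5.31, 5.77 and 5.78 TPM in untreated libraries (-1.50 ± 0.086, adjusted p = 5.22e-11), Itga6, which encodes integrin alpha 6, had 64.9, 81 and 74.9 TPM in trametinib libraries, against 190.2, 202 and 194 TPM in untreated libraries (-1.40 ± 0.071, adjusted p = 9.88e-12), and the keratin gene Krt19 had 3.75, 2.64 and 3.03 TPM in trametinib libraries, against 0.722, 0.719 and 0.759 TPM in untreated libraries (1.25 ± 0.19, adjusted p = 1.47e-05). Krt8 rose (0.55 ± 0.090) and its partner Krt18 fell (-0.66 ± 0.067), each without overlap between the libraries. The others called were Zeb1 (0.46) and Snai2 (0.29), which rose, and Sox4 (-0.25), which fell, but not without untreated replicate 2 (-0.24) or 3 (-0.22) or trametinib replicate 1 (-0.23) or 2 (-0.18). Targets and factors of YAP and TEAD were balanced, with 7 higher and 5 lower of 20 as deposited and 5 higher and 8 lower after rescaling. The shares over all genes were 35.9% and 18.9% as deposited, and 27.7% and 27.1% after rescaling. The 5 lower as deposited were Tead4 (-0.86), Wwtr1 (-0.64), Ankrd1 (-0.60), Nuak2 (-0.53) and Tead1 (-0.29), the last not without untreated replicate 3 (-0.25) or trametinib replicate 1 (-0.20). The classic targets Ccn1 (0.07 ± 0.11) and Ccn2 (-0.09 ± 0.095) were not called.

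Of 31 primary cilium genes 23 rose and 8 were not called, beside 35.9% of all genes higher, with a median of 0.40. After rescaling 17 rose and 3 fell, and without trametinib replicate 3, 1 fell. Ttc8, a subunit of the BBSome that carries membrane proteins into the cilium, had 21.7, 21.4 and 26 TPM in trametinib libraries, against 10.5, 13.2 and 10.9 TPM in untreated libraries (0.94 ± 0.094, adjusted p = 6.69e-08). Ift46, of the intraflagellar transport trains, had 70.8, 71.4 and 79.8 TPM in trametinib libraries, against 47.9, 54.2 and 49.5 TPM in untreated libraries (0.54 ± 0.071, adjusted p = 2.52e-06). Gli1 (chromosome 10 at 127329882 to 127341974 on the minus strand), a target and effector of Hedgehog signalling, had 3.45, 2.85 and 3.33 TPM in trametinib libraries, against 0.682, 0.744 and 0.729 TPM in untreated libraries, a 4.47-fold higher mean (1.29 ± 0.11, adjusted p = 5.69e-09). All 3 rose without overlap, and the other 20 rises lay between 0.25 for Bbs4 and 0.90 for Ift80.

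Of 24 genes for IRF and STAT factors and interferon receptors 11 rose and 2 fell, beside 35.9% and 18.9% of all genes, with a median of 0.15, close to the 0.105 of all genes. Irf1 had 25.4, 23.8 and 26.4 TPM in trametinib libraries, against 10.3, 9.44 and 8.80 TPM in untreated libraries (1.32 ± 0.062, adjusted p = 3.17e-12), Stat2 6.98, 6.27 and 7.60 TPM in trametinib libraries, against 2.29, 2.43 and 1.98 TPM in untreated libraries (1.30 ± 0.098, adjusted p = 1.86e-09), and the kinase gene Jak1 109.6, 113 and 127 TPM in trametinib libraries, against 65.8, 71.3 and 71.6 TPM in untreated libraries (0.73 ± 0.068, adjusted p = 3.2e-08). Each was higher in every trametinib library. The 2 that fell were Nlrc5 (-0.49) and Ifngr2 (-0.35). Irf3 (0.03 ± 0.23) and Irf2 (0.07 ± 0.046) overlapped between groups. In the circadian clock 5 of 15 genes rose and 2 fell (4 lower after rescaling), shares near or below those of all genes (35.9% and 18.9%), with the PAR bZIP gene Tef at 13.6 ± 0.139 TPM with trametinib and 5.38 ± 0.390 TPM untreated (1.20 ± 0.078, adjusted p = 2.74e-10) and Cry1 at 8.57 ± 0.822 TPM with trametinib and 12.3 ± 0.293 TPM untreated (-0.47 ± 0.072, adjusted p = 1.64e-05). The other rises were Per2 (0.86), Dbp (0.85), Bhlhe40 (0.46) and Per3 (0.35), and the other fall was Nr1d1 (-0.67).

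Of 21 genes for chaperones and the unfolded protein response 12 rose and 4 fell, beside 35.9% and 18.9% of all genes. After rescaling 8 rose and 6 fell, beside 27.7% and 27.1%. Among those that rose as deposited was Calr (0.29), and Xbp1 averaged 89.3 ± 7.16 TPM with trametinib and 63.8 ± 1.03 TPM untreated. The sensor genes Ern1, which encodes IRE1, at 20.3 ± 2.56 TPM with trametinib and 36.9 ± 1.13 TPM untreated (-0.84 ± 0.077, adjusted p = 2.38e-08), and Atf6, at 32.2 ± 4.38 TPM with trametinib and 61 ± 2.12 TPM untreated (-0.91 ± 0.070, adjusted p = 2.47e-09), both fell, while the abundant chaperone Hspa5 was not called as deposited (-0.03 ± 0.055) and was lower after rescaling. The other genes that fell were Herpud1 (-0.89) and Hyou1 (-0.30). Kruppel-like factors split 5 higher to 3 lower of 11 as deposited, beside 35.9% and 18.9% of all genes, and 3 to 4 after rescaling. Klf11 (1.13 ± 0.073, adjusted p = 2.18e-10), Klf3 (1.09 ± 0.084, adjusted p = 2.43e-09), Klf10 (0.58), Klf7 (0.27) and Klf4 (0.22) rose, and Klf5 (-0.64), Klf16 (-0.58) and Klf9 (-0.56) fell. The call of Klf7 ended without untreated replicate 1 (0.23) or trametinib replicate 2 (0.20), and that of Klf4 without untreated replicate 2 (0.21) or 3 (0.21) and without trametinib replicate 1 (0.21) or 3 (0.20).

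Beyond the lists, the naming rule chose further genes for the size of their change. Selenbp1, a methanethiol oxidase gene, had 17.1, 13.6 and 13.2 TPM in trametinib libraries, against 1.03, 1.20 and 1.10 TPM in untreated libraries (2.88 ± 0.15, adjusted p = 1.38e-11). Cryab, a small heat shock protein gene, had 7.46, 5.54 and 9.80 TPM in trametinib libraries, against 0.591, 0.739 and 0.754 TPM in untreated libraries (2.31 ± 0.13, adjusted p = 4.28e-11), and Cdc42ep2, an effector of the GTPase CDC42, had 68.2, 56.8 and 65.5 TPM in trametinib libraries, against 11.1, 11.9 and 12.4 TPM in untreated libraries (2.33 ± 0.084, adjusted p = 2.1e-13). All were at least 5-fold higher in the mean. The naming rule took only large changes without overlap between the groups, so neither trait is a separate result. Pik3r3, a regulatory subunit of PI3 kinase, rose by 2.26 ± 0.11, the ubiquitin ligase gene Mylip, whose product degrades the LDL receptor, by 2.25 ± 0.10, the proteoglycan gene Ogn by 2.25 ± 0.10, Cbr2, a carbonyl reductase gene, by 2.76 ± 0.20, and Lrrc15, Tppp3 and Arhgap8 by 2.43 ± 0.16, 2.34 ± 0.18 and 2.22 ± 0.25. On the other side Hmga2, a chromatin architecture gene of embryonic and tumour cells, had 46.4, 68.7 and 52.5 TPM in trametinib libraries, against 314, 329 and 326 TPM in untreated libraries (-2.53 ± 0.10, adjusted p = 6.52e-13). Sh2d5, an adaptor gene, had 1.32, 1.28 and 1.25 TPM in trametinib libraries, against 13.1, 12.8 and 14.3 TPM in untreated libraries (-2.66 ± 0.078, adjusted p = 3.09e-14), and Arid5a, whose product binds and stabilises cytokine mRNA, had 4.35, 3.95 and 2.47 TPM in trametinib libraries, against 17.9, 20.8 and 19.1 TPM in untreated libraries (-2.17 ± 0.16, adjusted p = 2e-09). For these falls too the rule required that the groups did not overlap.

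Single transcripts were tested as well, 34140 of them, and 4663 (13.7%) rose and 2962 (8.68%) fell (3752 and 3868 after rescaling). Of 6640 genes with 2 or more tested transcripts, 1159 had 2 or more called, and 45 of these had 1 called higher and another called lower. Transcripts of 1 gene share most of their sequence, so each level is the quantification tool's estimate of how reads divide. The 8 pairs widest apart, each averaging 5 TPM or more in the group where it was higher, were in Plpp2, Anxa2, Znrd1, Ddx5, Hnrnph1, Zfp384, Inpp5e and Ahcyl1, and in 7 of the 8 a call ended when 1 library was left out. The exception was Inpp5e, which encodes a phosphoinositide phosphatase of the cilium and lies on chromosome 2. Its transcript Inpp5e-201 at 26397054 to 26409184, annotated as a processed transcript without a coding sequence, had 4.68, 3.66 and 7.48 TPM in trametinib libraries, against 0.475, 0.545 and 3.13e-08 TPM in untreated libraries (2.21 ± 0.48, adjusted p = 0.00192). The coding Inpp5e-205 had 3, 4.48 and 2.57 TPM in trametinib libraries, against 7.21, 6.39 and 5.98 TPM in untreated libraries (-0.81 ± 0.19, adjusted p = 0.00423). Neither transcript overlapped between the groups, and the gene as a whole rose by 0.51.

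Adding trametinib to cisplatin and pemetrexed called many of the same genes as trametinib alone. There 4989 of the 12581 genes (39.7%) rose and 2057 (16.4%) fell, with 3429 higher and 3432 lower after rescaling. Of the 4515 genes higher with trametinib alone 3919 were also higher with it on chemotherapy, which is 86.8% of the genes higher with trametinib alone and 78.6% of those higher on chemotherapy. Of the 2377 lower genes 1715 were lower there too, 72.1% of those lower with trametinib alone and 83.4% of those lower on chemotherapy. The changes correlated at 0.784 (Pearson r, across 12581 genes, which are not independent replicates), and the 4 groups share no library. Feedback inhibitors fell in 11 of 14 cases there and cytosolic synthetases in 19 of 20, with medians of -0.56 and -0.37.

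A test of the difference itself, the change on chemotherapy minus that alone, called 12 genes (0.0954% of those tested), 11 of them (0.0874%) with a higher value on chemotherapy and 1 (0.00795%) with a lower one. Among the 11 were Cth (difference 0.90 ± 0.15), Gpt2, an alanine aminotransferase gene (0.76 ± 0.13), the stress factor gene Ddit3 (0.77 ± 0.096) and the lipoprotein receptor gene Vldlr (0.87 ± 0.12). Such a difference takes in changes of the cells without trametinib. From untreated cells to chemotherapy alone the mean went from 45.7 to 32.5 TPM for Cth and from 59.7 to 40.4 TPM for Gpt2. It went from 29.9 to 20.8 TPM for Ddit3 and from 5.69 to 3.83 TPM for Vldlr. With trametinib, alone and on chemotherapy, Gpt2 averaged 16.3 and 18.8 TPM and Vldlr 2.29 and 3.35 TPM. Ddit3 had 22.6, 23.2 and 23.1 TPM with trametinib on chemotherapy, against 18.8, 21 and 22.6 TPM on chemotherapy, and 19, 18.1 and 20.02 TPM with trametinib alone, against 29.3, 31.1 and 29.3 TPM in untreated cells. The groups without chemotherapy were apart, with trametinib lower, and those on chemotherapy overlapped. Cryab had 20.1, 21.6 and 22.1 TPM with trametinib on chemotherapy, against 0.819, 0.973 and 0.879 TPM on chemotherapy (difference 1.24 ± 0.19). Without chemotherapy it averaged 7.6 TPM with trametinib and 0.695 TPM untreated. Others with higher values were Pycr1 (0.66), Ldlrad3 (0.57), Mthfd2 (0.52), Pspc1 (0.51) and Cdk17 (0.39), all named after their values were seen, and Gas1 had a lower one (-0.38 ± 0.070). The number of calls is small and moves with single libraries. With the spread estimated from the 12 libraries of the contrast alone limma called 0 genes, with 1183 at an unadjusted p under 0.05. The 11 higher calls became 3 without untreated replicate 1, 3 without untreated replicate 2, 4 without untreated replicate 3, 6 without trametinib replicate 1, 34 without trametinib replicate 2, 24 without chemotherapy replicate 1, 3 without chemotherapy replicate 2, and 3 and 5 without replicates 1 and 3 of trametinib on chemotherapy.

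**Figure D4:**
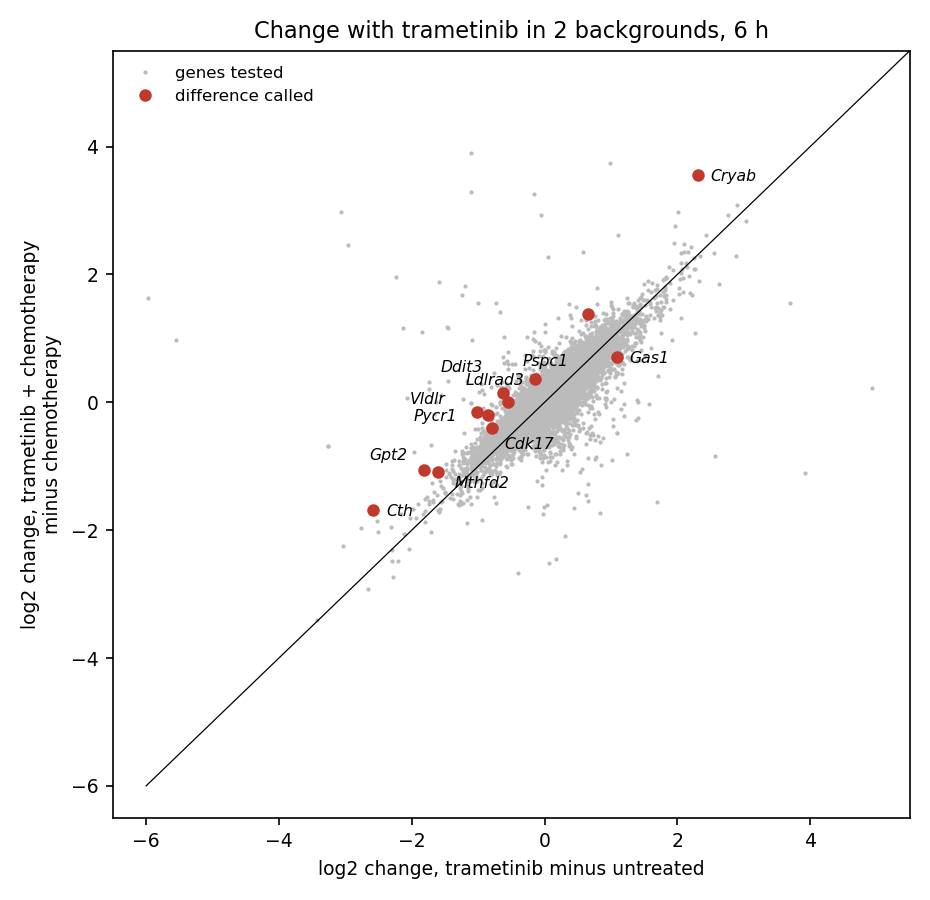
Each point is 1 of 12581 genes, with its log2 change with trametinib alone on the x axis and with trametinib added to chemotherapy on the y axis at 6 h, and the line marks equal changes. Most genes lie along the line, and the 12 genes whose difference passed the test are red, with Cryab at 2.31 and 3.56 and Cth at -2.58 and -1.68.

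At 24 h 4074 genes (32.4%) were higher and 3309 (26.3%) lower with trametinib than in untreated cells of that time, together 58.7%. The untreated cells of 6 h and 24 h differed as well, with correlations of 0.962 to 0.969 between their libraries. A difference between the effects thus takes in changes of the untreated cells. Of the 4515 genes higher at 6 h 2673 were higher at 24 h and 453 were lower, and of the 2377 lower at 6 h 1608 were lower and 179 higher. The difference between the effects passed the test in 4810 genes (38.2%), 2006 with a higher value at 24 h (15.9%) and 2804 with a lower value (22.3%). After rescaling the balance turned, with 2714 higher (21.6%) and 2479 lower (19.7%), together 41.3%. Feedback inhibitors had medians of -0.56 at 6 h and -0.61 at 24 h, with 4 called higher and 2 called lower at 24 h than at 6 h, and Dusp6 changed by -1.57 at 6 h and -1.27 at 24 h. The median of the sterol genes was 0.60 at 6 h and 1.75 at 24 h, and the difference was called in 20 of 25, higher in 19 and lower in 1, with Hmgcs1 at 1.07 and 2.66. Smooth muscle genes had a called higher value at 24 h in 16 of 20 cases, with Acta2 at 1.83 and 4.26.

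Genes for RNA polymerases I and III had medians of -0.49 at 6 h and -0.10 at 24 h. A called higher value at 24 h was found in 12 of 28 and a lower one in 2, beside 15.9% and 22.3% of all genes (18 and 1 after rescaling). From 6 h to 24 h the mean untreated level went from 76.6 to 36.5 TPM for Polr1b and from 30.3 to 17.5 TPM for Polr3d. For Polr3g it went from 33.9 to 22.3 TPM, for Maf1 from 64.6 to 98.4 TPM and for Polr3gl from 15.3 to 51.6 TPM. With trametinib, Polr1b went from 29.1 to 22 TPM, Polr3d from 17 to 14.3 TPM and Polr3g from 22.7 to 16.2 TPM. Maf1 went from 95.8 to 122 TPM and Polr3gl from 26 to 32.9 TPM. Cytosolic synthetases had medians of -0.57 and -0.92, with 9 of 20 called lower at 24 h than at 6 h and 2 higher, beside 22.3% and 15.9% of all genes. Ccnd1 changed by -1.83 at 6 h and -0.70 at 24 h, and Areg by -2.51 and -4.73. Gli1 stood at 1.29 and then -0.23, and 9 of 31 cilium genes had a called lower value at 24 h (8 after rescaling), a share near the 22.3% (19.7%) of all genes. Of the targets of NRF2, the factor of the antioxidant response, 6 of 20 rose at 6 h and 4 fell, beside 35.9% and 18.9% of all genes. After rescaling 5 rose and 6 fell, and without untreated replicate 3, 2 were lower. The median was 0.01. At 24 h the median of these targets was -0.81, and 17 of 20 had a called lower value than at 6 h, beside 22.3% of all genes. The mean untreated level moved too between 6 h and 24 h, from 73.1 to 179 TPM for Nqo1, from 86 to 293 TPM for Gstm1 and from 186 to 251 TPM for Txnrd1. For Gsr it went from 72.3 to 61.2 TPM. Nqo1, a quinone reductase gene, had 111, 115 and 129.9 TPM in trametinib libraries, against 70.1, 77.4 and 71.9 TPM in untreated libraries at 6 h (0.69 ± 0.067, adjusted p = 5.37e-08), with no overlap, and at 24 h it averaged 58.5 ± 5.66 TPM with trametinib and 179 ± 6.72 TPM untreated. Gstm1, a glutathione transferase gene whose close paralogs make its level uncertain, rose at 6 h (0.84 ± 0.062), and Gsr, the glutathione reductase gene, fell (-0.57 ± 0.064), as did Txnrd1 (-0.53), Osgin1 (-0.35) and Nfe2l2 (-0.11), the gene of NRF2 itself. The call of Nfe2l2 ended without untreated replicate 2 (-0.11) or 3 (-0.10) and without trametinib replicate 1 (-0.08), and that of Osgin1 without untreated replicate 1 (-0.35) or 3 (-0.32) or trametinib replicate 3 (-0.22).

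**Figure D5:**
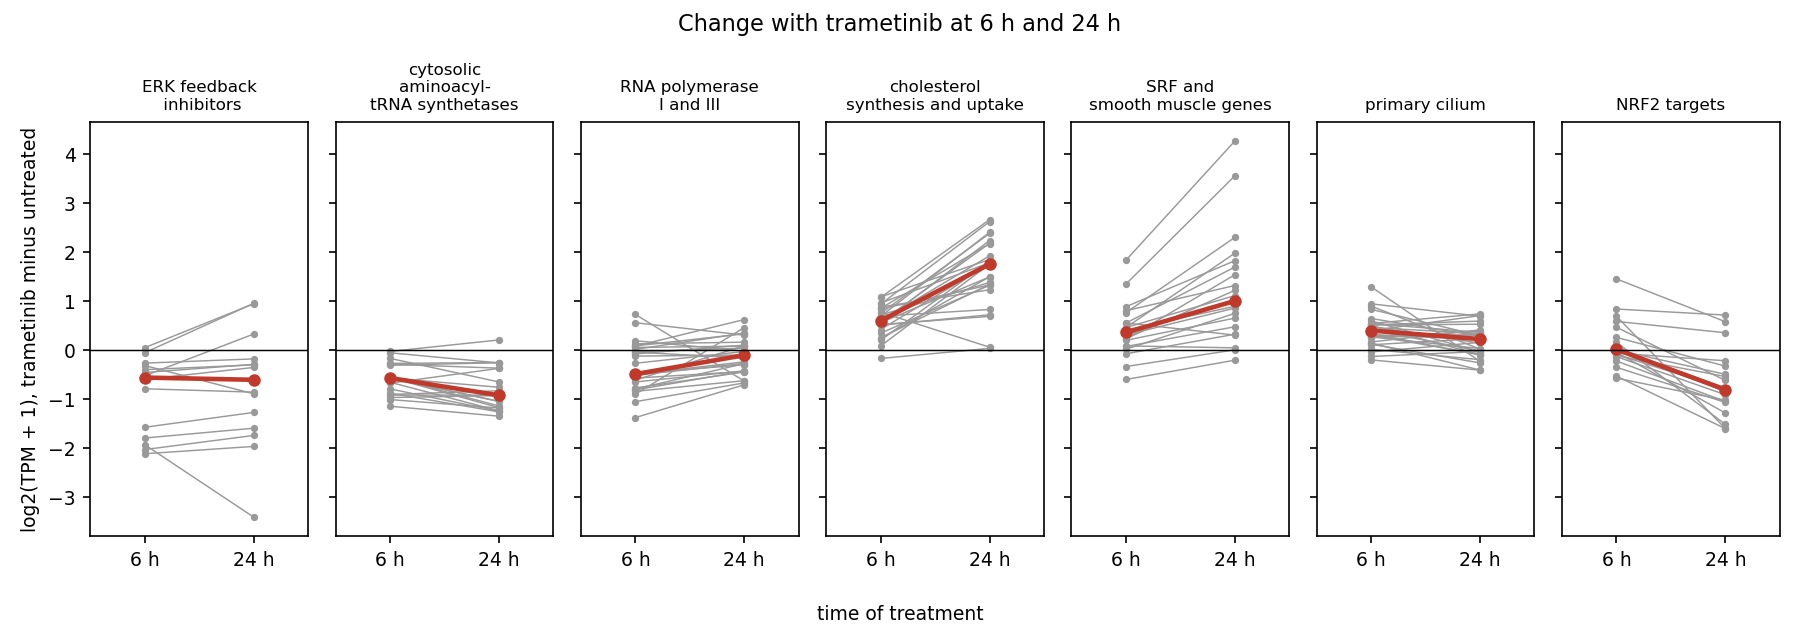
Change in log2(TPM + 1), trametinib minus untreated, at 6 h and 24 h for the genes of 7 lists (grey lines, 1 a gene) with the list medians in red. Medians lie at -0.56 and -0.61 for feedback inhibitors, 0.60 and 1.75 for cholesterol genes, and 0.01 and -0.81 for NRF2 targets.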

How the data were processed

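Bulk RNA sequencing gave 1 table of transcript abundances for 24 libraries, 8 groups of 3. The values are TPM that the authors computed and deposited. Per the submitters' processing notes the tools were bcl2fastq 2.17.1.14 and kallisto 0.45 with the build GRCm38. Which transcript set they used is not stated there. TPM keep no read counts, so the depth of the libraries is unknown, and no count model was used.

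Transcripts were matched by identifier to GENCODE M21 (79662 of 82934) and summed per gene, 28328 genes in all. The 3272 unmatched transcripts held 4.45% to 5.22% of the TPM in the 6 libraries described and were tested only as transcripts. A gene was kept if 3 or more of the 24 libraries had it at 1 TPM or above, which left 12581. They were fitted as log2(TPM + 1) with limma 3.58.1 (R 4.3.3), with a mean for each of the 8 groups over all 24 libraries, which thus share 1 estimate of the spread with 16 residual degrees of freedom, and a mean-variance trend. P-values are two-sided and Benjamini-Hochberg adjusted over all genes tested, with a threshold of 0.05. Scripts were tested on simulated data.

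The genes named are the 12 largest rises and 12 largest falls among called genes whose higher group averaged 5 TPM or more and whose libraries did not overlap, then from each list its first 3 members and the called members of lowest p (4 at most), the 5 largest differences in each direction for chemotherapy and for time, and 8 transcript pairs. Pseudogenes and genes with only a predicted or clone name were passed over. A few genes that the rule names are not reported here. The members and lists were chosen with earlier results of these data known. Replicate numbers were not used as a block. Alternatives were the pseudocount, the filter, rescaling by the median ratio, a replicate block, the contrast's libraries only, a Bonferroni threshold and each library left out.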

Additional observations from a re-analysis of the deposited data

Results flagged for a closer look

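Groups of 3 libraries are too small for a test of single outlying libraries, and none was made. The effect of trametinib differed between backgrounds in 12 genes by a test of the difference itself (the change on chemotherapy minus the change alone, limma). The named ones were Cryab (1.24), Cth (0.90), Vldlr (0.87), Ddit3 (0.77), Gpt2 (0.76) and Gas1 (-0.38). Cth averaged 9.49 ± 0.876 TPM with trametinib on chemotherapy and 32.5 ± 0.852 TPM on chemotherapy alone, against 6.83 ± 1.13 TPM with trametinib and 45.7 ± 6.85 TPM untreated (SD, n = 3 each). The calls of Cryab, Ddit3 and Vldlr held with each library left out, and those of Cth, Gpt2 and Gas1 did not, while with only the 12 libraries of the contrast none of the 6 was called.

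Between 6 h and 24 h the effect of trametinib differed in 4810 genes by a test of the difference, 24 h minus 6 h. The largest differences named were higher at 24 h for Ighm (3.94), Ogn (3.10), Cp (2.83), Gemin4 (2.74) and Rasl11a (2.56), and lower for Ccl7 (-2.66), Fam171b (-2.49), Ngef (-2.47), Nqo1 (-2.29) and Hid1 (-2.27). Ogn averaged 166 ± 12 TPM with trametinib and 3.11 ± 0.122 TPM untreated at 24 h, against 9.04 ± 1.64 TPM with trametinib and 1.10 ± 0.131 TPM untreated at 6 h. Ccl7, a chemokine gene, averaged 10.2 ± 1.12 TPM with trametinib and 2.26 ± 0.414 TPM untreated at 6 h, and 3.84 ± 0.865 TPM with trametinib and 7.81 ± 0.0873 TPM untreated at 24 h. From 6 h to 24 h the mean of Hid1 went from 3.17 to 24.6 TPM untreated and from 3.76 to 5.01 TPM with trametinib. Fam171b went from 2.17 to 10.2 TPM untreated and from 5.42 to 2.99 TPM with trametinib. Ngef went from 14.7 to 17.5 TPM untreated and from 13.3 to 2.05 TPM with trametinib. Gemin4 averaged 5.85 ± 2.22 TPM with trametinib and 20.7 ± 3.13 TPM untreated at 6 h, and it had 2.83, 0.832 and 2.14 TPM with trametinib at 24 h with an untreated level near 0 in 2 of 3 libraries. Ighm, the gene of the immunoglobulin mu chain, averaged 19.7 ± 2.05 TPM with trametinib at 24 h and was listed at 0 in all 3 untreated libraries of that time. The B cell markers Ms4a1 and Cd79a reached at most 0.0330 and 0.842 TPM in any of the 24 libraries. All 10 of these differences stayed past the threshold with each library left out.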

How the results depend on the processing

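The counts for trametinib alone at 6 h lay between 3950 and 4459 higher and between 2068 and 2377 lower genes as each library was left out. Bonferroni adjustment at 0.10, the threshold that the series' design text names, left 1741 higher and 955 lower genes, and 1941 and 770 on chemotherapy, 459 and 698 for the difference of 24 h and 6 h, and 1113 and 828 transcripts. For the difference between backgrounds it left 4 higher and 0 lower by limma, with 421 lower at an unadjusted p under 0.05. Rescaling by the median ratio gave 3432 lower genes on chemotherapy. For the difference between backgrounds the higher calls numbered 6 with a pseudocount of 0.1, and 3 to 34 as each library was left out, and the lower calls 2 with no filter, 2 with a mean of at least 5 TPM, 2 after rescaling and 0 to 7 as each library was left out (284 to 591 lower at an unadjusted p under 0.05). With only the 12 libraries of the contrast they were 0 and 0, with 1183 genes at an unadjusted p under 0.05. The cause of these shifts was not tested. With the replicate number as a block the counts alone were 4354 higher and 2300 lower, and for the difference between backgrounds 4 and 0 (409 lower at an unadjusted p under 0.05). Trametinib and untreated libraries of the same number at 6 h had deviations from their group means that correlated at 0.0225, 0.0924 and -0.086. Libraries of different numbers had -0.176 to 0.141. The same-number values on chemotherapy and at 24 h lay between -0.28 and 0.208. With 3 libraries a group, these values cannot settle whether the numbers pair libraries. Of 267 named genes 227 were called. Leaving out single libraries ended the call of 21 and gave a call to 3, all settings other than Bonferroni together ended 26 and gave 10, and Bonferroni ended 68. The sign changed with a call for Nras, at 0.01 as deposited and -0.10 after rescaling, and for no other of the 267. Of 696 counts over lists 21 moved by more than 1.5 times. Depth is unknown from TPM, so the limit it sets on low genes could not be given.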

Other observations

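The median level of genes that fell was 27.5 TPM with trametinib and 39.2 TPM untreated, that of genes that rose 17.8 TPM with trametinib and 11.8 TPM untreated, and that of genes not called 14.9 TPM with trametinib and 14.7 TPM untreated. Of 337 protein-coding genes tested on the X chromosome 41.8% rose and 12.8% fell, beside 38.6% and 20.2% of all 11502 protein-coding genes tested, and on single autosomes 15.2% to 24.4% of protein-coding genes fell. Of 13 genes of the mitochondrial genome 2 rose and 0 fell, beside 35.9% and 18.9% of all genes tested, with changes between -0.124 and 0.192 for all 13. Among 1017 tested transcripts without a gene match 77 rose and 37 fell, beside 13.7% and 8.68% of all transcripts tested. In Plpp2, a lipid phosphatase gene, transcript Plpp2-204 had 39.5, 36.8 and 31.7 TPM in trametinib libraries, against 7.12, 1.07 and 13.9 TPM in untreated libraries (2.55 ± 0.83), and Plpp2-202 had 5.79, 16 and 19.3 TPM in trametinib libraries, against 57, 60.3 and 46.5 TPM in untreated libraries (-2.06 ± 0.57). The groups overlapped for neither transcript. The call of Plpp2-204 ended without untreated replicate 1 or 2 or any trametinib replicate, and that of Plpp2-202 without trametinib replicate 1.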
